A study of Mus musculus with 4 samples.

Results

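Somatostatin (Sst) interneurons were examined in single-nucleus RNA counts from the brains of 2-month-old female mice. They were taken as nuclei with at least 1 UMI (unique molecular identifier, a count of captured RNA molecules) of Gad1 and Gad2 together, at least 2 of Sst, at least 1 of Sox6, at most 1 of Slc17a7 and at most 1 of Vip. This gave 570 of 52132 nuclei (1.09%), and they are called Sst nuclei below. The study asked what loss of 1 copy of Csf1r, the gene of the colony-stimulating factor 1 receptor of microglia, does to the cells of the brain. The groups were untreated wild-type (WT) mice and mice heterozygous for Csf1r in every cell (Csf1r+/-), both on the C57/BL6 strain, with 2 libraries of each used here and 1 mouse per library. The sources describe the tissue as brain and name no region. WT libraries 1 and 2 held 145 and 200 Sst nuclei, and Csf1r+/- libraries 1 and 2 held 109 and 116. Their summed UMIs were 1037296, 1340584, 1172118 and 970053 in the same order, which is used for every series of 4 values below. None of the Sst nuclei shared a barcode with a Sst nucleus of another library, while 33 to 68 barcodes were shared between pairs of libraries over all kept nuclei.

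Sst interneurons are GABAergic neurons that arise mostly in the medial ganglionic eminence (MGE) of the embryo, where the transcription factors Lhx6, Sox6 and Satb1 act in turn to set their fate. In the cortex and hippocampus they contact the dendrites of principal cells, and they release the peptide somatostatin beside GABA. Known kinds include long-range projecting cells with Chodl, Nos1 and Npy, and cells that differ in calretinin, calbindin and other peptides.

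Somatostatin transcription is a classical case of control through a cyclic AMP response element (CRE). Its palindrome is shown because Sst is the gene that defines these nuclei. In the RefSeq promoter (GRCm38.p6, minus strand, chr16:23890874-23890903) the CRE lay 48 to 41 bases upstream of the RefSeq start, in capitals here.
Sst CRE: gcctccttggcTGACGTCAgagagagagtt
The same 8 letters, TGACGTCA, which read alike on both strands, were found in 588 of 32851 RefSeq windows of 300 bases around gene starts (1.79%). Sst itself (ENSMUSG00000004366) spans chr16:23889573-23890958 on the minus strand in GENCODE.

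The label was checked against genes that the selection did not use. Nxph1, which encodes the neurexin ligand neurexophilin 1, was at 3118 ± 375 CPM (counts per 1000000 of all UMIs of the class; mean and SD over the 4 libraries) in Sst nuclei, against 633 ± 316 in nuclei selected for Vip and 1816 ± 222 in nuclei selected for Pvalb. Grin3a, an NMDA receptor subunit, was at 948 ± 168 CPM against 136 ± 35.7 and 139 ± 58.3. Satb1 was at 370 ± 31.2 CPM against 59.8 ± 24.4 and 174 ± 62.8. In all 3 genes every library of Sst nuclei lay above every library of both other classes. Lhx6 was found in 26.5% of Sst nuclei, at 41.5 ± 7.41 CPM, in 17.1% of Pvalb nuclei, at 3.01, 30.6, 35.9 and 14.6 CPM, and in 1.61% of Vip nuclei and 0.123% of excitatory nuclei. Its level in Pvalb nuclei of Csf1r+/- library 1 (35.9 CPM) lay within the range of the Sst nuclei, from 35.7 to 52.0 CPM. Elfn1, a postsynaptic protein that recruits presynaptic receptors onto Sst interneuron inputs, was at 142 ± 15.1 CPM in Sst nuclei. Its level was 88.2 ± 16.4 CPM in Vip nuclei and 2.79 ± 0.643 in excitatory nuclei. In Pvalb nuclei Elfn1 was at 6.02, 0, 0 and 0 CPM, from 2 UMIs in 1 nucleus. Npy, encoding neuropeptide Y, was at 305 ± 26.7 CPM in Sst nuclei and 70.4 ± 32.9 and 5.57 ± 4.71 in the other classes. The Vip class had 436 nuclei and the Pvalb class 111, and these levels are given without a test because the classes were chosen on marker counts.

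**Figure D1:**
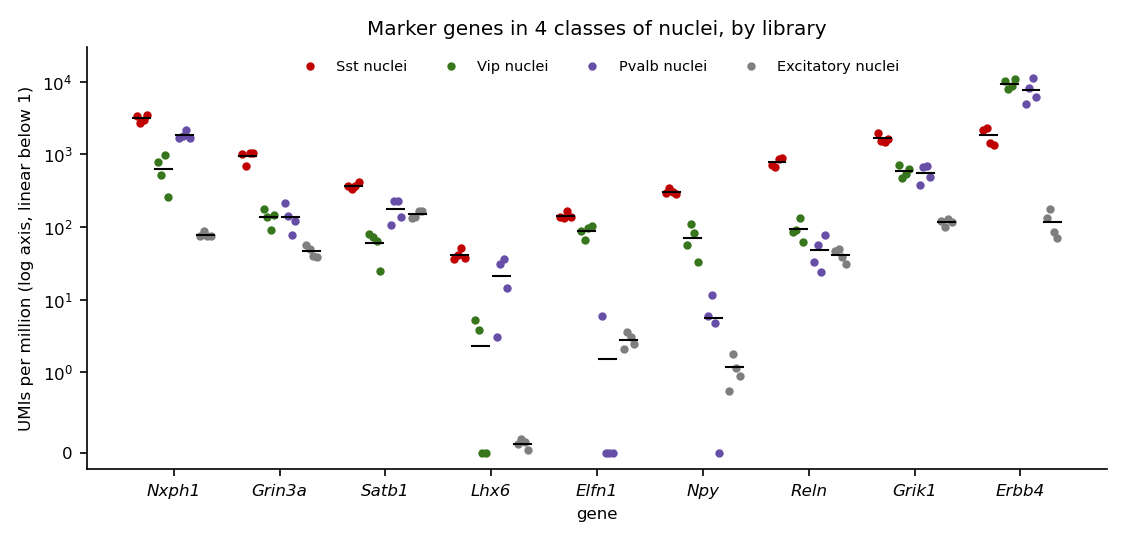
CPM of 9 genes (log axis, linear below 1) in Sst, Vip, Pvalb and excitatory nuclei, with a point for each of the 4 libraries and a bar at their mean. Nxph1, Grin3a, Satb1 and Npy were higher in every library of Sst nuclei than in every library of the other 3 classes, whereas Erbb4 was lower in Sst nuclei than in Vip and Pvalb nuclei.

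Grik1, a kainate receptor subunit, was set apart in the same way, at 1659 CPM in Sst nuclei, 592 in Vip nuclei and 555 in Pvalb nuclei. By contrast Erbb4, the neuregulin receptor of cortical interneurons, was at 1821 ± 488 CPM in Sst nuclei, 9351 ± 1380 in Vip nuclei and 7676 ± 2841 in Pvalb nuclei. Background RNA in droplets was small for Sst: 1.48% of excitatory nuclei had an Sst UMI, at median depths of 7694 to 11706 UMIs by library, against 5648 to 8563 in Sst nuclei.

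The values used for the selection are given as a description. The median number of Sst UMIs per nucleus was 3, 5, 6 and 5, with the highest at 73, 52, 84 and 82, and 120 nuclei held exactly 2. Just outside that limit were 224 nuclei with 1 Sst UMI that met every other condition. Those held Nxph1 at 2854 CPM and Grin3a at 771 CPM, and nuclei with exactly 2 Sst UMIs held 3344 and 855. At the Sox6 limit, 46 nuclei had 1 Sox6 UMI and 170 had none. The nuclei without Sox6 differed from the members: Lhx6 was found in 6.47% of them, and Adarb2, a marker of interneurons from the caudal ganglionic eminence (CGE), stood at 656 CPM. With 1 Slc17a7 UMI there were 53 nuclei inside, and with 2 there were 16 outside. At the Vip limit 4 nuclei inside had 1 UMI, and none outside had 2.

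Depth and doublet scores differed between libraries. Median UMIs per Sst nucleus were 5648, 6027, 8563 and 6951. High Scrublet scores, which mark likely doublets, were given to 13.8%, 15.5%, 7.34% and 6.03% of Sst nuclei. These nuclei were kept, and the share and the genotype counts were also taken without them. WT library 2 stood apart in its RNA: mitochondrial UMIs were 0.241%, 0.675%, 0.356% and 0.195% of a Sst nucleus at the median, and summed ribosomal protein transcripts were 1880, 3857, 1911 and 1608 CPM. Results that rest on this library are given with and without it.

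Among the Sst nuclei the subtype genes fell into recognisable sets. Chodl was found in 36 nuclei, of which 31 held Nos1 (86.1%), 35 held Npy (97.2%) and 28 held Tacr1, the substance P receptor (77.8%). Nuclei without Chodl held these genes in 13.7%, 49.4% and 10.1% of cases, at similar depth (median 6435 UMIs against 6879.5). The 25 nuclei with Calb2, which encodes calretinin, held calbindin (Calb1) in 44.0% of cases and the rest in 40.4%. Cort, the cortistatin gene, was found in 15.7% of nuclei with Npy and in 4.06% of those without. Reln showed the opposite order with Npy: Npy was found in 47.8% of nuclei with Reln and 62.6% of those without, although nuclei with Reln were deeper (median 6761 UMIs against 5530.0). Crh was found in 8 nuclei, Myh8 and Nts in 2 each and Th in 1.

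Clustering of the 570 nuclei gave 10 subclusters, each with nuclei from all 4 libraries, described here by number and leading genes. Subcluster 6 (44 nuclei) was led by Adgrg6, Nos1 and Ntn1, with Nos1 at 1086 CPM, Npy at 1359 CPM and Chodl at 107 CPM. Subcluster 7 (44 nuclei) was led by Dach1 and Pcp4 and had Sst at 1968 CPM, Npy at 797 CPM and Nos1 at 337 CPM. Reln was at 2.55 CPM in subcluster 6 and at 1622 and 1629 CPM in subclusters 3 and 4. Subcluster 3 (78 nuclei) was led by Hpse, Cdh7 and Eya4 and held the dynorphin precursor gene Pdyn at 53.5 CPM. Subclusters 5 (57 nuclei) and 9 (30 nuclei) were set apart by Erbb4, at 6709 and 11351 CPM, against 171 CPM in subcluster 4. Cort and Tac1 were at 151 and 96.6 CPM in subcluster 9, and Moxd1, a relative of dopamine beta-hydroxylase, was at 437 CPM in subcluster 10 (23 nuclei).

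Subcluster 1 (96 nuclei) did not look like the others. Its leading genes were Zfhx3, Tcf7l2, St18 and Adarb2, with Meis2 also among the first 10. Its median depth was 12112 UMIs, and 56.2% of its nuclei had high Scrublet scores. Adarb2 was at 553 CPM and Meis2 at 273 CPM. Still, it held Nxph1 at 2025 CPM and Grin3a at 540 CPM. It made up 16.6%, 19.0%, 14.7% and 15.5% of Sst nuclei by library. The Sst label therefore applied less well to these nuclei, and the genotype comparison was repeated without them.

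**Figure D2:**
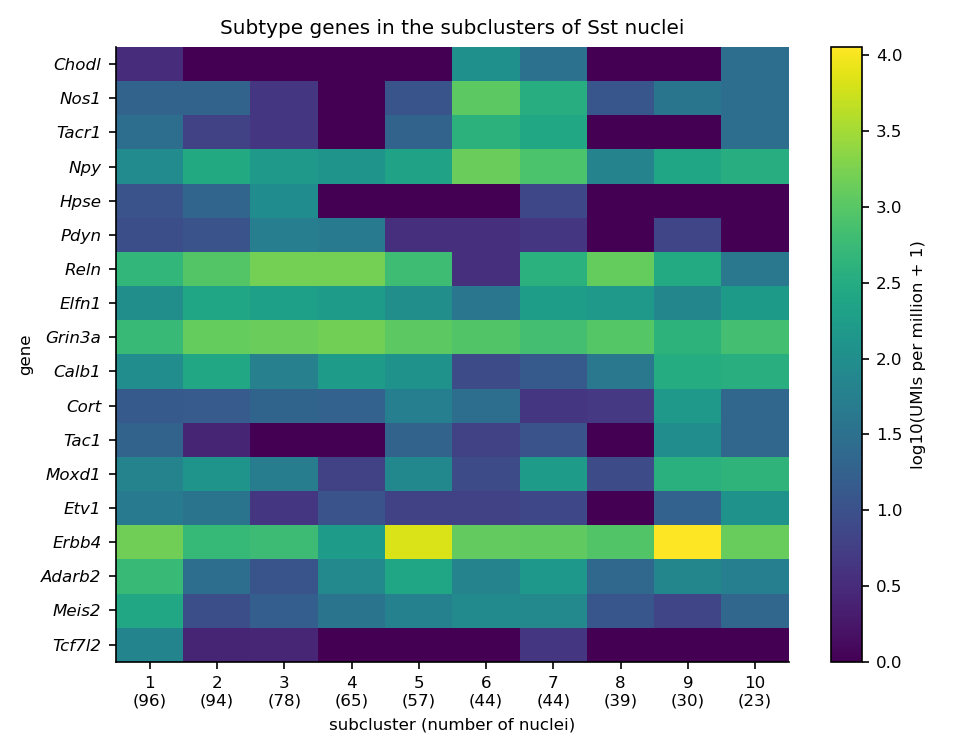
Level of 18 genes (colour, log10 of CPM plus 1) in the 10 subclusters of Sst nuclei, with the number of nuclei under each. Nos1, Chodl and Tacr1 were highest in subcluster 6, Erbb4 in subclusters 9 and 5, and Adarb2, Meis2 and Tcf7l2 in subcluster 1.

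The signalling genes of Sst nuclei were then read by role, as levels over the 4 libraries. Of the peptide genes, Pam, the enzyme that amidates peptides, was found in 97.0% of nuclei, the convertase Pcsk2 in 60.2% and carboxypeptidase E (Cpe) in 71.9%. Somatostatin receptors were scarce in the same nuclei: Sstr2 was found in 2.63%, Sstr1 in 1.75% and Sstr5 in none of 570. For GABA itself, the vesicular transporter Slc32a1 was found in 29.8% of nuclei. Channel genes found in nearly all nuclei included Kcnd2 in 98.9%, Kcnc2 in 98.4% and Cacna1a in 96.7%. The 20 immediate early genes summed to 338, 323, 313 and 281 CPM, with Homer1 the most abundant at a mean of 161 CPM. Fos was at 25.1, 3.73, 5.97 and 3.09 CPM and Npas4 at 25.1, 2.98, 0.853 and 12.4 CPM. Both were highest in WT library 1.

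The share of Sst nuclei did not separate the genotypes. It was 0.900%, 1.31%, 1.14% and 1.04% of kept nuclei, giving 1.11% ± 0.291 in WT and 1.09% ± 0.0702 in Csf1r+/- mice (SD, n = 2 each; difference -0.0187 percentage points, two-sided exact permutation p = 1). Binomial 95% intervals (Wilson), which cover counting error only, were 0.765% to 1.06%, 1.14% to 1.5%, 0.943% to 1.37% and 0.866% to 1.24%. The WT libraries lay on either side of both Csf1r+/- libraries. With 2 mice in each group the smallest p this test allows is 0.33. Of nuclei with a Gad1 or Gad2 UMI, Sst nuclei made up 3.84%, 4.60%, 4.29% and 5.23%, and the groups again overlapped. When nuclei with at least 2000 UMIs were thinned to that number and the rest left out, 14166, 13146, 8882 and 10493 nuclei remained. Of these the shares were 0.304%, 0.525%, 0.360% and 0.343%. Without nuclei with high Scrublet scores the shares of kept nuclei were 0.889%, 1.26%, 1.14% and 1.07%.

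Csf1r itself gave 0, 2, 5 and 4 UMIs in Sst nuclei, too few to be tested and too few to check the genotype labels in these cells. Across the transcriptome, 82 of 8052 genes passed an unadjusted p of 0.01 in edgeR's quasi-likelihood test (1.02%), the threshold the study uses. Of these, 15 were higher (0.186% of genes tested) and 67 lower (0.832%) in Csf1r+/- mice. No gene passed a Benjamini-Hochberg adjusted p of 0.05, 360 had an unadjusted p under 0.05 (4.47%), and DESeq2 brought 19 past 0.01 and none past the adjusted threshold. The shares of 1.02% at 0.01 and 4.47% at 0.05 were about those expected with no genotype difference. Without nuclei with high Scrublet scores 82 genes also passed 0.01, but only 50 of them were among the 82 above. Without Csf1r+/- library 1 or 2, 14 and 6 genes passed the adjusted threshold. Leaving out WT library 1 raised the count to 162, and without WT library 2 it was 70, with 32 higher and 38 lower. Most of the 82 genes did not pass without WT library 2. The 2 genotypes did not overlap in 80 of the 82 genes, beside 31.6% of all genes tested. Because the 82 were chosen by p on the same libraries, this count is not separate support. Where the groups do not overlap, leaving out 1 library cannot turn the direction of the difference in these levels. When a library was left out, its genotype had 1 sample, which was assumed to vary like the 2 of the other genotype, from which alone the spread was estimated. All 82 genes kept their direction whichever library was left out, and 5 were past 0.01 each time under that assumption: 4930587E11Rik, Baiap2, Ano3, Necab1 and Gsg1l. In the sentences on genotype below, levels are CPM scaled by TMM factors, differences are log2 values of Csf1r+/- against WT with their standard errors, and p is from this test.

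Among these 5 genes, Ano3 and 4930587E11Rik were higher in Csf1r+/- mice. Ano3, a member of the anoctamin family of membrane proteins, was at 276, 256, 444 and 453 CPM, a difference of 0.75 ± 0.16 (adjusted p = 0.368). Both Csf1r+/- libraries lay well above both WT libraries. The noncoding 4930587E11Rik was at 80.5, 77.5, 134 and 206 CPM, a difference of 1.10 ± 0.21 (adjusted p = 0.368). The groups were again apart, with Csf1r+/- library 2 the highest. This gene is annotated as antisense, as are 4930533B01Rik and 2810001G20Rik below, and since the sources used here do not state how strand was used in counting, their reads cannot be told apart from those of their partners.

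The other higher genes with the smallest p were Socs6 (0.80 ± 0.23), Sema6a (0.57 ± 0.17), Col11a1 (0.64 ± 0.20), 4930533B01Rik (1.46 ± 0.45), 2810001G20Rik (1.58 ± 0.49), Thsd7a (0.51 ± 0.16), Trim39 (1.63 ± 0.52) and Zbtb16 (0.60 ± 0.20). Sema6a encodes a transmembrane semaphorin, Col11a1 a fibrillar collagen chain and Zbtb16 a zinc finger transcription factor. Thsd7a was the most highly counted of them, at 590, 552, 853 and 774 CPM. Trim39, an E3 ubiquitin ligase gene, rested on few molecules, at 6.12, 2.98, 13.3 and 14.1 CPM. Thsd7a is among the 10 leading genes of subcluster 2 and Col11a1 among those of subcluster 3. Without subcluster 1, Socs6, Sema6a, Col11a1, 4930533B01Rik and Thsd7a no longer passed 0.01, with differences of 0.76, 0.46, 0.45, 1.40 and 0.47, while 2810001G20Rik and Trim39 were below the detection limit and not tested. Socs6 (0.57), Sema6a (0.56), Col11a1 (0.69), 4930533B01Rik (1.14), Thsd7a (0.47) and Trim39 (1.14) did not pass without WT library 2, and 2810001G20Rik (2.30) and Zbtb16 (0.78) did.

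The lower genes Baiap2, Gsg1l and Necab1 were the ones past 0.01 whichever library was left out. Baiap2, whose product IRSp53 links Rac signalling to actin at synapses, was at 36.7, 43.2, 8.84 and 16.2 CPM, a difference of -1.71 ± 0.35 (adjusted p = 0.368). Without nuclei with high Scrublet scores it was -1.09 and did not pass 0.01. Gsg1l, an auxiliary subunit of AMPA receptors, was at 31.6, 32.0, 12.4 and 10.8 CPM, a difference of -1.44 ± 0.35 (adjusted p = 0.512). Necab1, a neuronal calcium-binding protein, was at 71.4, 67.1, 32.7 and 36.8 CPM, a difference of -0.99 ± 0.23 (adjusted p = 0.512). In all 3 both WT libraries lay above both Csf1r+/- libraries, and the WT libraries were close to each other.

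Other lower genes with small p were the noncoding RNAs Rmst (-1.02 ± 0.23) and Gm32647 (-0.69 ± 0.17), the receptor phosphatase gene Ptprk (-0.85 ± 0.21) and the glutamate transporter gene Slc1a2 (-1.04 ± 0.23), an astrocyte marker. Slc1a2 was at 97.9, 165, 60.1 and 69.2 CPM, and without WT library 2 its difference was -0.60, which did not pass 0.01. Ptprk was at 111, 167, 76.0 and 79.99 CPM, and without the same library its difference was -0.51 and did not pass. Rmst did not pass without Csf1r+/- library 1 (-0.70). Rmst, like Arpp21, Hs3st4, Meis2 and Cacna2d1, is a leading gene of subcluster 1 that was lower in Csf1r+/- mice, so that 5 of the 7 tested leading genes of that subcluster were among the lower genes, beside 0.832% of all genes tested. Of the tested leading genes 3 of 8 were lower for subcluster 5 (Gm32647, Erbb4 and Pard3b) and 3 of 7 for subcluster 9 (Gm32647, Erbb4 and Nxph2). Without subclusters 5 and 9 the difference of Gm32647 was 0.012, and without subcluster 1 it was -1.09. Without Csf1r+/- library 1 it was -0.53 and did not pass 0.01.

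**Figure D3:**
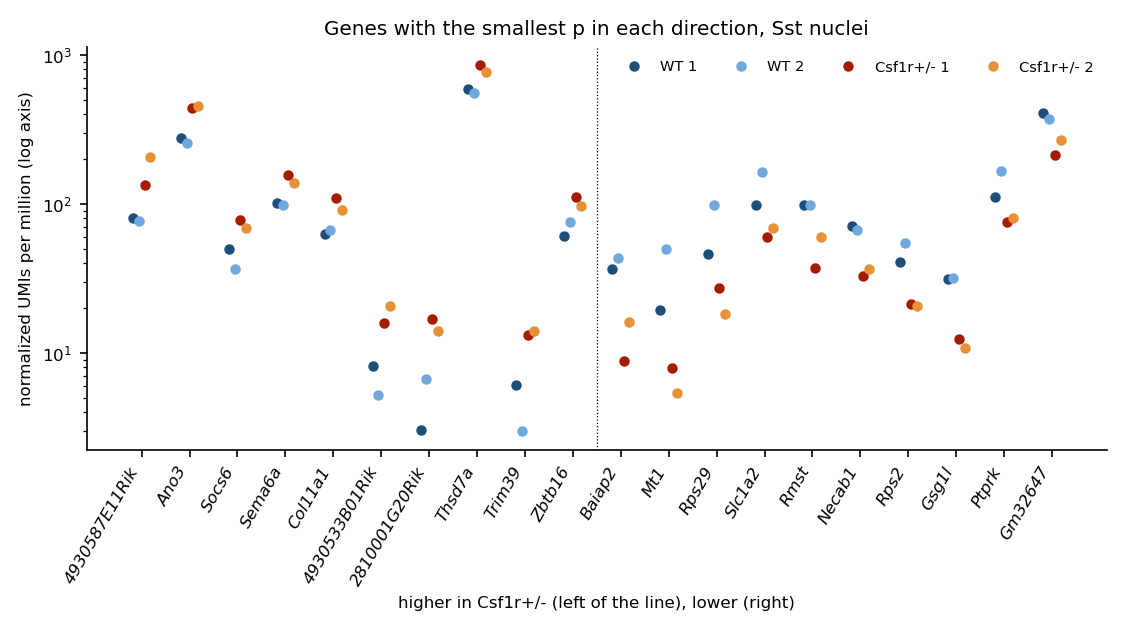
TMM-scaled CPM (log axis) of the 10 genes with the smallest p in each direction in Sst nuclei, 1 point per library. All 20 genes had both libraries of a genotype on the same side of the other genotype, and Mt1, Rps29, Slc1a2 and Ptprk had WT library 2 well above WT library 1.

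Erbb4 was the only member of the Sst and MGE lineage list to pass 0.01. It lies at chr1:68032186-69108059 (GRCm38, minus strand). Its levels were 2299.9, 2302, 1504 and 1419 CPM, a difference of -0.65 ± 0.17 (adjusted p = 0.546). The 2 libraries of each genotype were nearly alike and the genotypes were apart. Erbb4 levels differed between subclusters. In subclusters 5 and 9 together its unscaled level was 8333, 8458, 8446 and 6805 CPM, and in all other nuclei 1266, 1177, 776 and 691 CPM. Without subclusters 5 and 9 the difference was -0.71 and passed 0.01. It no longer passed without subcluster 1 (-0.38), with Sst raised to at least 5 UMIs (-0.40), with the replicate number as a block (-0.66), or without Csf1r+/- library 1 (-0.70) or 2 (-0.61).

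The lineage and subtype lists otherwise showed little difference. Of 14 lineage genes 12 were tested, 1 was lower and none higher (0.832% and 0.186% of all genes), with a median log2 difference of 0.18 beside -0.0012 over all genes tested. Lhx6 was at 37.7, 41.0, 53.9 and 38.9 CPM, a difference of 0.25 ± 0.25. Of 25 subtype genes 11 were tested and 1, Moxd1, was lower, again beside 0.832% of all genes, at 133, 93.1, 76.0 and 65.9 CPM (-0.65 ± 0.21, adjusted p = 0.905). The groups did not overlap, but it did not pass without WT library 1 (-0.39), Csf1r+/- library 2 (-0.55) or subcluster 1 (-0.52). Npy (-0.087 ± 0.16) and Nos1 (-0.022 ± 0.17) did not differ beyond their errors. Chodl, in few nuclei, missed the detection limit, and Cort (0.32) did not pass.

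The lists of signalling genes held no gene past 0.01 in either direction. None of 10 tested peptide genes, 20 GABA genes, 22 glutamate receptor genes, 24 voltage-gated channel genes or 4 immediate early genes did so. Their median log2 differences were -0.062, -0.074, -0.024, -0.015 and -0.19. The GABA genes ranged from -0.53 to 0.19, and the channel genes from -0.37 to 0.38. Without WT library 2 the medians were 0.17, -0.16, -0.082, -0.039 and -0.31, and the immediate early gene Egr1 alone of these passed, as lower.

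The lower genes included 2 metallothionein and 11 ribosomal protein genes of 67. Mt1, which encodes a metal-binding metallothionein (chr8:94179082-94180327), was at 19.4, 49.9, 7.96 and 5.40 CPM, a difference of -2.38 ± 0.49 (adjusted p = 0.368). Both WT libraries were above both Csf1r+/- libraries, and WT library 2 was far above WT library 1. Without WT library 2 the difference was -1.49 and did not pass 0.01. Mt3 was at 29.6, 51.4, 15.9 and 16.2 CPM (-1.36 ± 0.34) and Aldoc, a glycolytic aldolase, at 14.3, 50.7, 8.84 and 6.49 CPM (-2.11 ± 0.53). Without WT library 2 these were -0.87 and -0.86, and neither passed. Rps29, a small ribosomal subunit protein, was at 45.9, 99.1, 27.4 and 18.4 CPM (-1.67 ± 0.34), and without WT library 2 at -0.97, which did not pass.

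Together, 4 of the 6 tested genes that the study names for neurons, for glia or for brain tissue (Mt1, Mt2, Mt3, Apoe, Aldoc, Rpl37 and Rps29, chosen on samples that include these, with Mt2 not tested) were lower, beside 0.832% of all genes tested. Apoe did not pass, with levels of 33.6, 147, 52.2 and 27.0 CPM, so that the groups overlapped, and without WT library 2 its difference was 0.27. Rpl37 did not pass either (-0.90 ± 0.36, and -0.29 without WT library 2). Both Apoe and Rpl37 passed without subcluster 1 (-1.32 and -1.11). The median of the 6 genes was -1.52, and without WT library 2 it was -0.87 with none past 0.01. Leaving out WT library 1, all 6 passed. Their summed level was 160, 448, 125 and 93.8 CPM.

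Cytosolic ribosomal protein genes were lower in 11 of 75 tested and higher in none (0.832% and 0.186% of all genes), and all 75 differences were below 0, with a median of -0.73. Besides Rps29 and Rps2 (-1.20 ± 0.28, and -0.95 without WT library 2) they were Rps21, Rps24, Rpl37a, Rpl12, Rplp1, Rps27, Rpl8, Rpl31 and Rpl13, with differences from -1.36 to -0.85. Without WT library 2 none passed, 46 were below 0 and 29 above, and the median was -0.066. Leaving out WT library 1 instead, 43 passed as lower and the median was -1.08. In excitatory nuclei the summed level of ribosomal protein genes was likewise highest in WT library 2, at 1074.5, 2269, 1063 and 973 CPM. Counts of these genes are uncertain where near-identical pseudogenes take part of the reads. Nuclear-encoded respiratory chain genes were lower in 2 of 56, beside the same 0.832% (Atp5d, -1.65 ± 0.46, and Cox4i1, -1.07 ± 0.33), with a median of -0.21. Without WT library 2 neither passed (-1.15 and -0.30), and the median was 0.069. The number of lower genes was 7 without WT library 1, 3 without Csf1r+/- library 1 and 1 without Csf1r+/- library 2. Their summed level was 1756, 2624, 1938 and 1694 CPM.

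**Figure D4:**
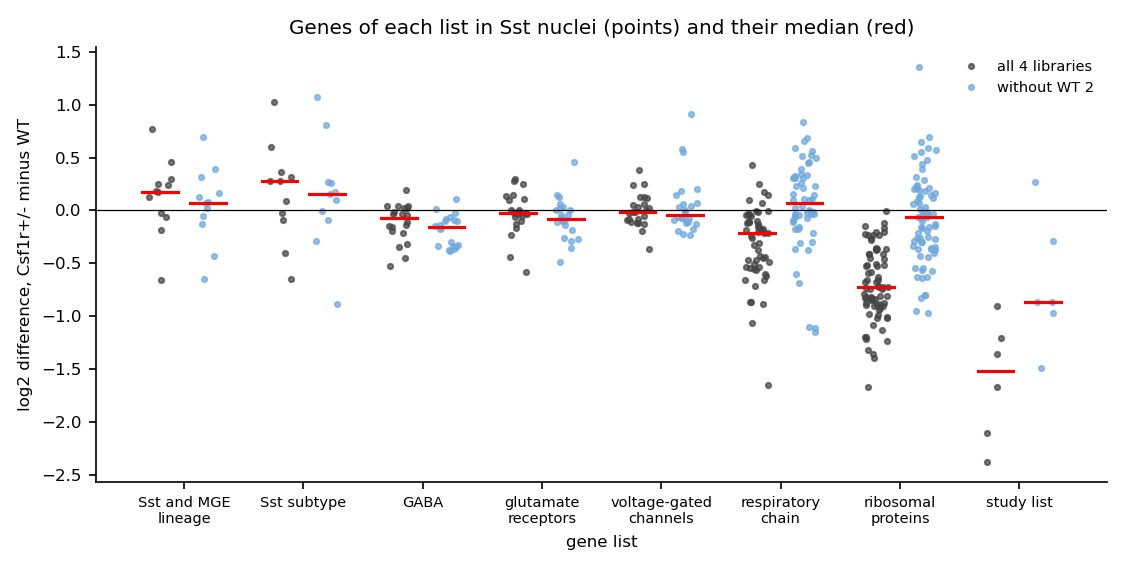
Log2 difference of Csf1r+/- against WT for each tested gene of 8 lists in Sst nuclei, with all 4 libraries (dark points) and without WT library 2 (light points), and medians as red bars. Medians of the ribosomal, respiratory and study lists moved from -0.73, -0.21 and -1.52 to -0.066, 0.069 and -0.87 without that library, and those of the GABA, glutamate receptor and channel lists from -0.074, -0.024 and -0.015 to -0.16, -0.082 and -0.039.

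Summed markers of other cells were highest in WT library 2 for oligodendrocytes, their precursors, astrocytes, endothelial and mural cells, CGE interneurons and subcortical transcription factors, but not for microglia, excitatory neurons, striatal projection neurons or Pvalb interneurons. Oligodendrocyte markers (7 of 7 with a UMI, led in CPM by Mbp) summed to 98.3, 269, 93.8 and 116 CPM. Astrocyte markers (7 of 7) summed to 244, 330, 234 and 188 CPM. Their largest part was Slc4a4, which is among the leading genes of subcluster 6 of the Sst nuclei themselves. Microglia markers (7 of 7, led by P2ry12) summed to 55.9, 83.5, 64.0 and 90.7 CPM. Endothelial markers stood at 0.964 to 5.97 CPM and mural markers at 1.71 to 5.22 CPM. CGE interneuron markers summed to 306, 373, 312 and 125 CPM, with Adarb2 the most abundant. Excitatory markers summed to 512, 462, 444 and 410 CPM, and 1 of the 5 tested, Nrgn, was lower (0.832% of all genes; -1.20 ± 0.38, but -0.69 and not past 0.01 without WT library 2). Subcortical transcription factor genes summed to 188, 200, 152 and 111 CPM, and Meis2 was lower (-0.60 ± 0.20), though it did not pass without subcluster 1 (-0.52), WT library 1 (-0.60), WT library 2 (-0.59) or Csf1r+/- library 2 (-0.36). Without nuclei with high Scrublet scores the 2 tested subcortical genes differed by -0.23 and 0.29, and neither passed 0.01. The part of these markers in the genotype differences was not tested.

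Whether the genotype differences were those of other interneurons was asked by testing them against Vip and Pvalb nuclei of the same 4 libraries. Within those classes, with all 4 libraries, the genes the study names had median log2 genotype differences of -1.03 (Vip) and -2.16 (Pvalb). Ribosomal protein genes had medians of -0.66 and -0.96, beside 0.0028 and -0.014 over all genes tested. These medians were not taken without WT library 2, which was highest in every sum. Summed ribosomal protein genes were at 2056, 4004, 1877 and 2093 CPM in Vip nuclei and 1964, 3465, 1421 and 1193 CPM in Pvalb nuclei. The genes the study names summed to 166, 403, 125 and 155 CPM in Vip nuclei and 328, 489, 83.9 and 73.0 CPM in Pvalb nuclei. Against Vip nuclei, 135 of 8240 genes passed an unadjusted p of 0.01 (1.64%), 64 more positive in Sst nuclei (0.777%) and 71 more negative (0.862%), and 5 passed an adjusted p of 0.05 (0.0607%). Of these 5, Sox6 was used in the selection of Sst nuclei, so its difference there is set by the rule in part. The log2 genotype difference of Sox6 was 0.13 in Sst nuclei and -2.07 in Vip nuclei, which were selected without it. Sox6 is not read further.

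Cadps2 takes part in the priming of dense-core vesicles, and its genotype difference had opposite signs in Sst and Vip nuclei. Its levels were 179, 90.9, 76.2 and 53.0 CPM in Sst nuclei and 212, 131, 294 and 273 CPM in Vip nuclei. The log2 genotype differences were -1.01 and 0.72, and they differed by -1.75 ± 0.23 (adjusted p = 0.000545). The genotypes did not overlap in either class. The sorting receptor gene Sorcs3 was at 208, 151, 119 and 106 CPM in Sst nuclei and 1303, 1291, 1517 and 1942 CPM in Vip nuclei, and the difference between classes was -1.05 ± 0.20 (adjusted p = 0.0417). Both genes lay lower in each Csf1r+/- library than in each WT library of Sst nuclei, and the reverse in Vip nuclei.

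Iqgap2 and Fam19a1 were more positive in Sst than in Vip nuclei. Iqgap2, a scaffold protein gene, was at 157, 129, 185 and 164 CPM in Sst nuclei and 66.8, 35.6, 15.3 and 8.91 CPM in Vip nuclei (difference between classes 2.25 ± 0.40, adjusted p = 0.0163). Fam19a1, encoding a secreted protein of the TAFA family, was at 136, 171, 160 and 238 CPM in Sst nuclei and 338, 276, 121 and 98.0 CPM in Vip nuclei (1.76 ± 0.26, adjusted p = 0.0011). In Sst nuclei the genotypes overlapped for Fam19a1 and were close for Iqgap2. Without subcluster 1 of the Sst nuclei the difference of Fam19a1 was 0.42 and did not pass 0.01, and that of Iqgap2 was 2.31.

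Next in order of p were Pcdh11x (0.94 ± 0.19), Erbb4, Sema3a (-1.80 ± 0.37), Tox (1.14 ± 0.24) and Necab1 (-1.19 ± 0.26). Erbb4 was at 10881, 7896, 9126 and 11848 CPM in Vip nuclei, where the genotypes overlapped, and the difference between classes was -0.82 ± 0.17 (adjusted p = 0.0545). Without a library as a block 53 genes passed 0.01 and none the adjusted threshold. When each library was left out in turn 14, 12, 34 and 36 genes passed the adjusted threshold, and without Csf1r+/- library 2 the count at 0.01 was 208. The Vip nuclei numbered 125, 147, 99 and 65.

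**Figure D5:**
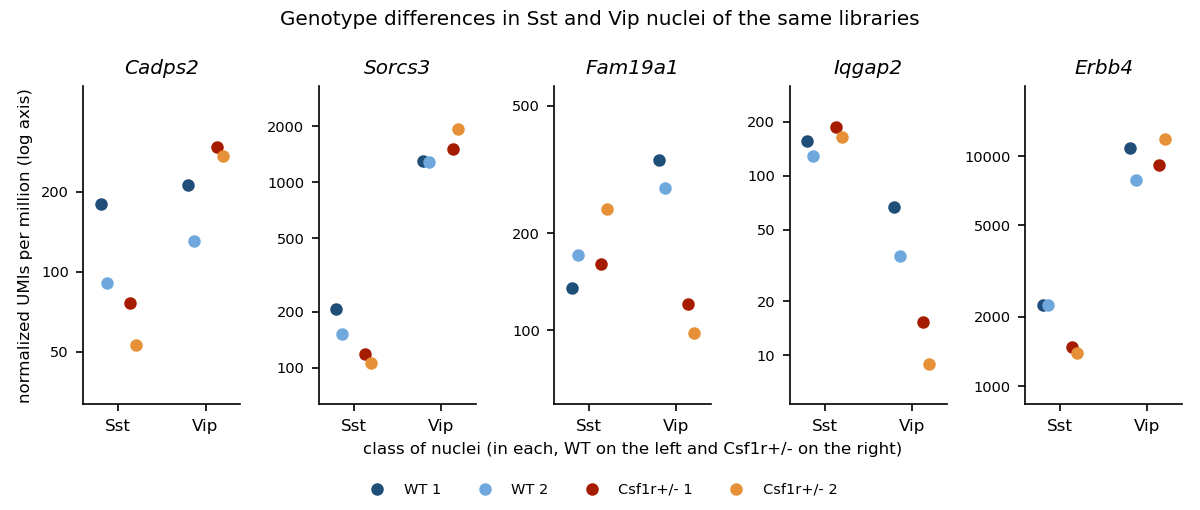
TMM-scaled CPM (log axes) of 5 genes in Sst and Vip nuclei, with WT libraries on the left and Csf1r+/- libraries on the right within each class. Cadps2 and Sorcs3 were lower in the Csf1r+/- libraries of Sst nuclei and higher in those of Vip nuclei, and Iqgap2 and Fam19a1 were lower in the Csf1r+/- libraries of Vip nuclei.

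Against Pvalb nuclei, which numbered only 29, 28, 32 and 22, 96 of 9094 genes passed 0.01 (1.06%), 61 more positive in Sst nuclei (0.671%) and 35 more negative (0.385%), and none passed the adjusted threshold in edgeR's quasi-likelihood test. There were 437 genes at an unadjusted p under 0.05 (4.81%), and the likelihood-ratio test brought 9 past the adjusted threshold. The shares of 1.06% at 0.01 and 4.81% at 0.05 were about those expected with no difference between the classes. The smallest p belonged to the myelin gene Mbp (2.81 ± 0.47, adjusted p = 0.111). Mbp was at 51.8, 102, 50.4 and 48.2 CPM in Sst nuclei and 95.8, 348, 21.8 and 14.6 CPM in Pvalb nuclei. WT library 2 was highest in both classes. More positive in Sst nuclei were also Cacna2d3, Kirrel3 and Rnf152, and more negative were Myo5b, Fhod3, Ccdc90b, Cntnap4 and Cntnap5c. For Cntnap4, a neurexin family member, the levels were 433, 299, 219 and 252 CPM in Sst nuclei and 383, 563, 803 and 660 CPM in Pvalb nuclei (-1.27 ± 0.33, adjusted p = 0.559). The genotypes were apart in both classes, in opposite directions. Without WT library 2 or Csf1r+/- library 2 the counts at 0.01 were 193 and 148, and leaving out each library in turn gave 9, 29, 1 and 28 genes past the adjusted threshold.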

How the data were processed

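The authors isolated nuclei without detergent from heparin-perfused brains, depleted myelin with beads, made Chromium 3′ v3.1 libraries and counted them with Cell Ranger 5.0.0 (mm10, per the labels). The deposited values are raw UMI counts per gene and called nucleus. Libraries had 16415, 16301, 9905 and 11369 called nuclei; 16114, 15247, 9589 and 11182 were kept, by limits of 500 and 50000 on UMIs, over 200 detected genes and a mitochondrial share below 5%. Of the 3 libraries of each genotype in the study, the third was not used here.

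Counts of Sst nuclei were summed per library and compared with edgeR 4.0.16 (TMM, quasi-likelihood, two-sided; R 4.3.3). A gene was tested if detected in 10% or more of the WT or the Csf1r+/- nuclei, with 10 counts in all. DESeq2 1.42.0, edgeR's likelihood-ratio test and other selections were alternatives. Interactions with Vip nuclei (Vip at least 2, Sst at most 1) and Pvalb nuclei (Pvalb at least 2, Sst and Vip at most 1), both with Gad1 or Gad2 and at most 1 Slc17a7 UMI, used 8 sums with library as a block. Excitatory nuclei had at least 2 Slc17a7 UMIs and no Gad1 or Gad2 UMI. Doublet scores came from Scrublet in scanpy 1.11.5, with the share expected set at 0.8% per 1000 nuclei, and subclusters from leidenalg 0.10.2 (1500 variable genes, 15 components, resolution 0.8). Tested on simulated data, 92.5% of 200 genes changed by a log2 of 1 were recovered at 0.01. These were drawn from genes with at least 200 UMIs in all, and no library was made to stand apart. Recovery of genes with fewer UMIs, such as Mt1, Baiap2 and Gsg1l, was not measured. Named genes were the 10 smallest p in each direction (5 for interactions), listed genes past 0.01 and the genes the study names. The members and lists were chosen with earlier results of these data known. Gene positions are from GENCODE M21 (GRCm38). Some genes that the naming rule covers are not reported here.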

Additional observations from a re-analysis of the deposited data

Results flagged for a closer look

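Besides Sox6, 4 genes had genotype differences that differed between Sst and Vip nuclei by a test of the difference itself. The log2 genotype difference in Sst nuclei minus that in Vip nuclei was -1.75 for Cadps2, -1.05 for Sorcs3, 1.76 for Fam19a1 and 2.25 for Iqgap2. All 4 kept their direction and stayed past an unadjusted p of 0.01 whichever library was left out. Without subcluster 1 of the Sst nuclei Fam19a1 did not pass (0.42). No explanation was tested.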

How the results depend on the processing

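Counts of genes past an unadjusted p of 0.01 were 82 (genotype in Sst nuclei), 135 (against Vip) and 96 (against Pvalb). They came to 19 for genotype with DESeq2, 53 for Vip without the library block and 158 for Pvalb with the likelihood-ratio test, and to 70 to 162, 123 to 208 and 67 to 193 when each library was left out. Past an adjusted p of 0.05 the counts were 0, 5 and 0. For genotype they were 5 with the likelihood-ratio test, 1 with Sst at least 5, 1 with the replicate block and 3 without subcluster 1 (chosen after seeing the data), and 0 to 14 when each library was left out. The likelihood-ratio test gave 23 for Vip and 9 for Pvalb, Vip without the block gave 0, and leaving out libraries gave 12 to 36 and 1 to 29. The difference in share ranged from -0.225 to 0.187 percentage points when each library was left out, and was 0.101 with Sst at least 5; as a share of nuclei with Gad1 or Gad2, another denominator, it was 0.543. Gm32647 turned to 0.012 without subclusters 5 and 9. Every other named gene past 0.01 kept its direction under all alternatives run, and with the replicate block (91 genes past 0.01, 73 of them shared) 37 of the 40 named genes stayed on the same side of 0.01. The replicate numbers did not pair the libraries (correlation of deviations 0.0174), so the samples share only a number. Sums of 970053 to 1340584 UMIs limit genes under about 10 CPM to few molecules. Free RNA was not subtracted.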
